A study of Mus musculus with 9 samples.

Results

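The transporters described here move amino acids, sugars and monocarboxylates such as lactate across membranes. They are the genes of 9 solute carrier families (Slc1, Slc2, Slc3, Slc5, Slc6, Slc7, Slc16, Slc38 and Slc43) that carry a single symbol in the annotation of the arrays, with Slc7a3 left out. This gave 79 genes and 140 probe sets, of 36899 probe sets in all. The samples were pooled mouse embryos of embryonic day 7.5, in the course of gastrulation, hybridised as total RNA to 9 Affymetrix arrays of 3 designs, murine genome U74 version 2 A, B and C. The conditional knockout was a pool of about 50 embryos that lost beta-catenin, the gene product of Ctnnb1, in cells in which the cytokeratin 19 promoter drove Cre recombinase. The floxed/deleted pool carried a floxed and a deleted allele of the gene, and the wild-type/floxed pool carried a wild-type and a floxed allele, and these controls are called FD and WF here. The labels state neither the number of embryos in these 2 control pools nor whether they carried Cre, with which the FD genotype would equal that of the knockout. All 3 pools carried at least 1 allele that is or was floxed. There was 1 pool per genotype on each design. The designs hold different probe sets and are not replicates of each other, so every difference below is a value without a replicate check and no test was possible.

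Solute carriers of these families differ in what powers them. Slc2 and Slc43 proteins mostly let their substrates follow a gradient, Slc5, Slc6 and Slc38 proteins mostly use the sodium gradient, and Slc16 proteins include carriers that move lactate together with a proton. Most Slc7 light chains exchange one amino acid for another and reach the cell surface only when bound to an Slc3 heavy chain. In the early mouse embryo the visceral endoderm, the absorptive epithelium that surrounds the embryo, takes up and passes on nutrients before a placenta works, and the embryo itself relies on glucose uptake and releases lactate.

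Values are array signals on a linear scale. A signal was read against a floor, the median of all values on its design (57.3 on A, 90.0 on B and 80.9 on C), and values below it were set to the floor before log2 was taken. A gene was measured when the floor was exceeded in 1 or more of the 3 pools. Each gene is represented by the probe set with the highest mean signal over the pools. Of the 79 genes, 56 were measured and 23 were below the floor in every pool, and 37 lay above it in all 3 pools. Signals of different probe sets cannot be set against each other, so each gene is compared only with itself across the pools. A fold is given against the nearer of the control pools, and "at least" marks a fold with one side at the floor. Without replicates, the scatter between the controls serves as a yardstick. Log2 differences FD minus WF had a standard deviation across the measured probe sets of 0.44 for design A, 0.59 for design B and 0.88 for design C, and values read on design C are therefore the least certain.

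**Figure D1:**
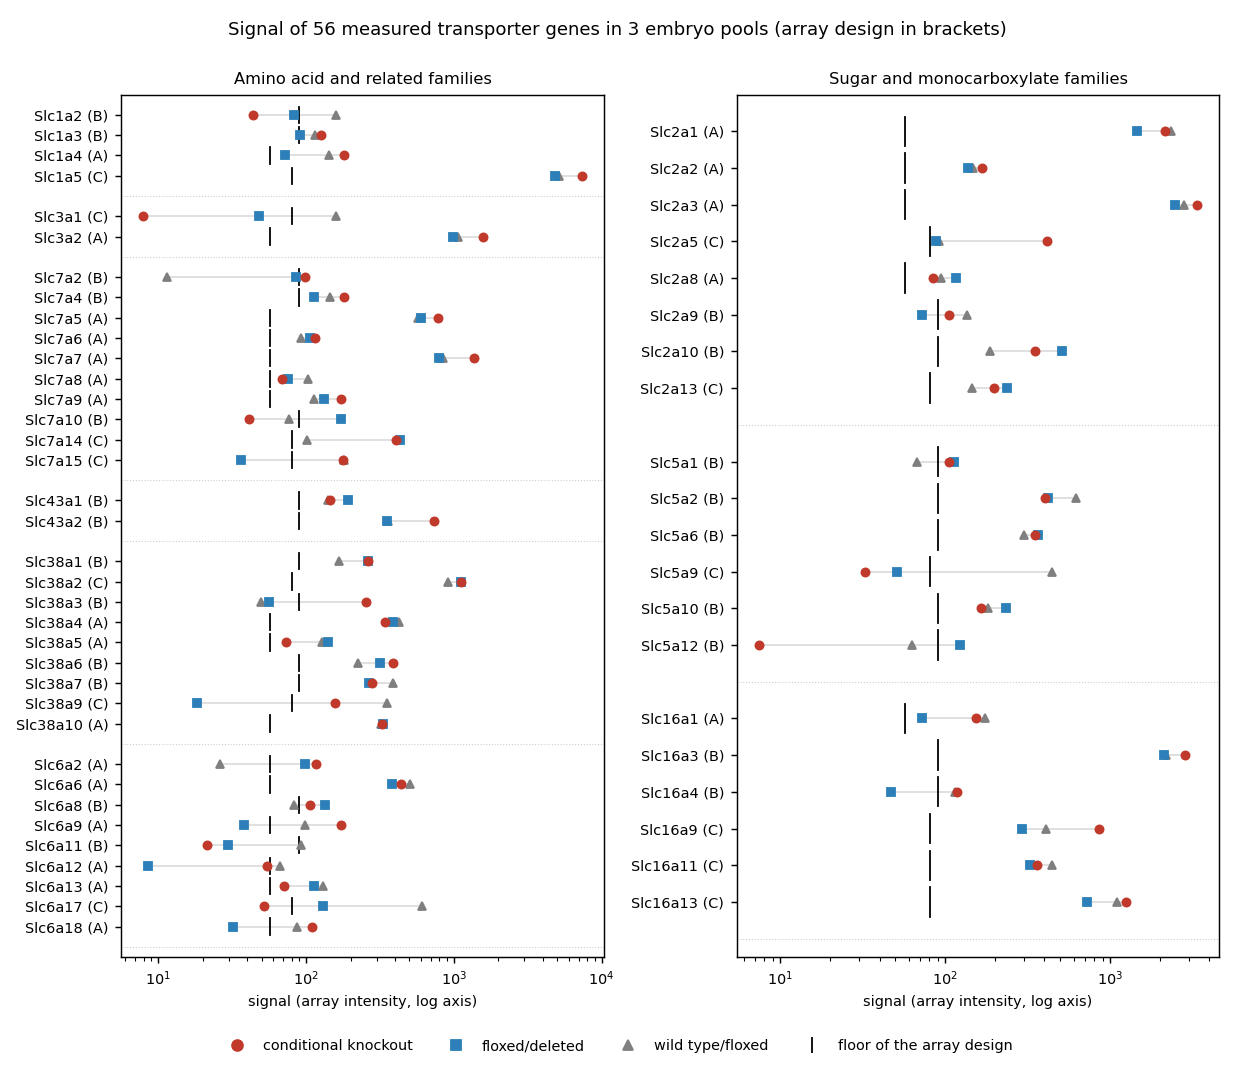
Signal of each of the 56 measured transporter genes in the conditional knockout (circles), floxed/deleted (squares) and wild-type/floxed (triangles) pools, on a log axis, with the array design in brackets and the floor of that design as a black bar. The knockout circle lies clearly to the right of both controls for Slc2a5 (411 against 88.2 in floxed/deleted embryos and 92.1 in the wild-type/floxed ones), Slc16a9, Slc43a2 and Slc7a7, and to the left for Slc38a5 (73.7 against 141 in floxed/deleted embryos and 129 in the wild-type/floxed ones).

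In the knockout pool, 6 of the 56 measured genes exceeded each control by 1.5-fold or more and 3 were below each control by as much. The 6 were Slc2a5, Slc6a9, Slc7a7, Slc16a9, Slc38a3 and Slc43a2, which carry fructose, glycine, cationic and neutral amino acids, monocarboxylates, glutamine and large neutral amino acids. The 3 were Slc6a13, Slc6a17 and Slc38a5, which carry GABA and related solutes or neutral amino acids. These are 10.7% and 5.36% of the measured transporters. Over all 12388 measured genes, 6.51% were higher by the same rule and 5.80% were lower, so the share of lower transporters was near that of genes in general. With the medians of the arrays made equal, 8 were higher and 2 lower, against 8.09% and 4.67% of all genes. On designs A and B without C, 4 of 51 were higher and 2 lower, against 4.68% and 4.46% of all genes. Among the 37 genes above the floor in all pools, 4 were higher and 2 lower, against 4.31% and 5.32% of all such genes. By design, 2 of 21 genes read on A were higher and 2 lower (all genes 3.53% and 3.39%), 2 of 22 on B were higher and 0 lower (all genes 5.79% and 5.31%), and 2 of 13 on C were higher and 1 lower (all genes 11.3% and 9.56%). By any amount, the knockout had the highest signal in 23 of the 56 and the lowest in 8 (41.1% and 14.3%), against 33.4% and 26.4% of all measured genes. The median log2 difference of the transporters, knockout minus the mean of both controls, was 0.16, and it was -0.02 over all measured genes. Between the controls, FD minus WF, these medians were -0.08 and 0. In pooled whole embryos, fewer cells of a type and less RNA per cell cannot be told apart.

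**Figure D2:**
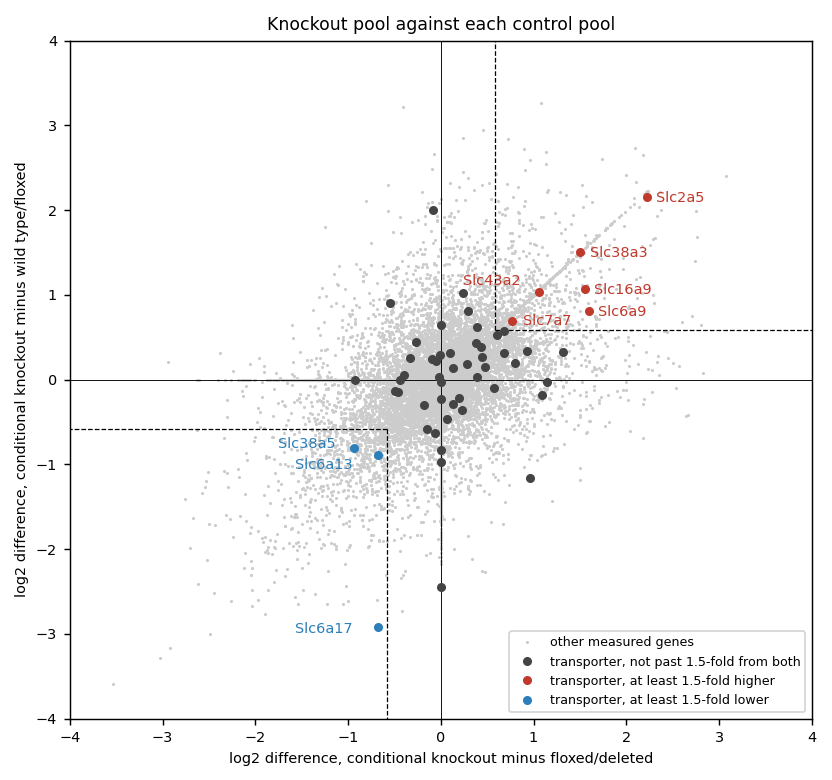
Log2 difference of the knockout from the floxed/deleted pool (horizontal) and from the wild-type/floxed pool (vertical) for the 56 measured transporter genes, over all other measured genes in grey. Dashed lines mark 1.5-fold from both controls. The 6 higher genes lie beyond them at the upper right, Slc2a5 farthest out, and the 3 lower genes at the lower left. Slc6a17 lies far below the others, with a signal of 614 in the wild-type/floxed pool.

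Slc2a5 encodes the fructose transporter GLUT5. Its signal was 411 in the knockout pool, 88.2 in the FD pool and 92.1 in the WF pool, 4.47-fold higher in the knockout. The controls lay close together and just above the floor. A second probe set on design C, whose suffix marks an incomplete probe choice, gave 179 in the knockout against 11.3 in FD and 99.9 in WF, 1.80-fold higher. The probe set on design A ran the other way, with 46.6 against 81.0 in FD and 115 in WF. Of the 3 probe sets, the pair on design C thus put the knockout highest and the one on A put it lowest. The log2 difference from the nearer control was 2.16 on the chosen probe set, 1.32 under a 70th percentile floor and 0.67 for the mean of the 3 probe sets.

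Slc16a9 encodes a monocarboxylate carrier family member linked in humans to carnitine. Its signal was 855 in the knockout pool, against 291 in FD and 406 in WF, 2.11-fold higher. That probe set, on design C, has a suffix that marks sequence shared between transcripts. A probe set on design B without such a suffix gave 288 against 75 in FD and 217 in WF. The knockout was the highest pool on both, but with the second probe set alone the log2 difference from the nearer control was 0.41, which is below 1.5-fold.

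Slc43a2 encodes LAT4, a carrier for branched-chain and aromatic amino acids. Its signal on design B was 733 in the knockout pool, 353 in FD and 358 in WF, 2.05-fold higher with the controls nearly equal. Its 2 other measured probe sets on the same design did not repeat this size. One gave 230.3 in the knockout against 198 in FD and 144 in WF, and the other gave 71.6 against 172 in FD and 131 in WF. The mean of the 3 probe sets put the gene at a log2 difference of 0.11 from the nearer control.

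Slc7a7 encodes y+LAT1, the light chain that exchanges cationic for neutral amino acids at the basal side of absorptive epithelia. It was read by 1 probe set, on design A. Its signal was 1360.3 in the knockout pool, 800.0 in FD and 843 in WF, 1.61-fold higher. The control pools differed far less from each other than from the knockout. The log2 difference of Slc7a7 was between 0.67 and 0.77 when the scaling or the control was changed. The floor and probe set settings could not change it, because its 1 probe set has no shared suffix and lies far above the floor.

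Both remaining higher genes rest on signals near the floor. Slc38a3, which encodes the sodium-coupled glutamine and histidine carrier SNAT3, stood at 256 in the knockout pool, with 56.3 in FD and 49.8 in WF, both below the floor. It was at least 2.84-fold higher, a bound set by the floor, and under a 70th percentile floor its log2 difference was 0.61. Slc6a9, which encodes the glycine transporter GlyT1, stood at 174 in the knockout, 37.9 in FD and 98.7 in WF, 1.76-fold higher. The controls themselves lay on opposite sides of the floor for Slc6a9, and with a floor at the 70th percentile its log2 difference was 0.37.

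The 3 lower genes had low signals. Slc38a5, which encodes the glutamine carrier SNAT5, stood at 73.7 in the knockout pool, 141 in FD and 129 in WF, 1.75-fold lower. Slc6a13, which encodes a carrier for GABA, taurine and betaine, stood at 70.4, against 113 in FD and 130.2 in WF, 1.60-fold lower. In both genes the knockout was the lowest pool and the controls were close. Slc6a17, which encodes a vesicular carrier of neutral amino acids known from neurons, stood at 52.1, against 129 in FD and 614 in WF, at least 1.60-fold lower. Its controls differed 4.74-fold from each other. With a floor at the 70th percentile the log2 difference of Slc38a5 and Slc6a17 was 0 and Slc6a13 was not measured, and with equal medians that of Slc6a13 was -0.53, below 1.5-fold.

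The upstream sequences of the genes that were at least 1.5-fold from FD and WF alike and above the floor throughout are shown, since the differences of these 6 genes rest on measured signals. Each run is the 250 bases before the outermost start of the gene in RefSeq (GRCm38.p6), read 5′ to 3′ on the gene's strand. Capitals mark matches to 5 motifs on either strand, and matches that touch run together. The motif CTTTGA is the core bound by the Tcf factors that partner beta-catenin. The motif TGATGNAA is the core of the element through which genes respond to amino acid shortage. The motif TATAAA is the promoter box of that name. The motif GGGCGG is known as the GC box and is bound by Sp1 and its relatives. The motif AGATAA is a core of sites for the GATA family of factors.
Slc2a5, chr4:150119094-150119343, + strand: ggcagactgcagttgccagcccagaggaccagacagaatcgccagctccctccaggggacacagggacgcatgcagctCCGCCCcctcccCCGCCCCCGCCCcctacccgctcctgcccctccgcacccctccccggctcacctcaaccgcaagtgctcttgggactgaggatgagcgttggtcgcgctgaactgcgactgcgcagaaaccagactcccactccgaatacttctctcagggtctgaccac
Slc16a9, chr10:70245026-70245275, + strand: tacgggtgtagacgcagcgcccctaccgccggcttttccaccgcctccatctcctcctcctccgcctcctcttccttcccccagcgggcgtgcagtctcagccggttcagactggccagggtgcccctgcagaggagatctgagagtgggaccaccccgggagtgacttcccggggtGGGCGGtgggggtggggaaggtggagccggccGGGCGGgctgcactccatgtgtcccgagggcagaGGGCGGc
Slc43a2, chr11:75531444-75531693, + strand: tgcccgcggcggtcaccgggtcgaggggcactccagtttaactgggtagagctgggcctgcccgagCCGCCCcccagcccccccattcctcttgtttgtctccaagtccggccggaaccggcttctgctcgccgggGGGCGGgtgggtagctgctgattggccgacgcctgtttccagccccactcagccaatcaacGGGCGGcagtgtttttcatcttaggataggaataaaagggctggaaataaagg
Slc7a7, chr14:54417945-54418194, - strand: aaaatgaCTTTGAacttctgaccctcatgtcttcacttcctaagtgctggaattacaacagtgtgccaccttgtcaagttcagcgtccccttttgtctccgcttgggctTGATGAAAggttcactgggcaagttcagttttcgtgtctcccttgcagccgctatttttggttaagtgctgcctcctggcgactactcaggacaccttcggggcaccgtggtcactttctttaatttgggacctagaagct
Slc38a5, chrX:8271131-8271380, + strand: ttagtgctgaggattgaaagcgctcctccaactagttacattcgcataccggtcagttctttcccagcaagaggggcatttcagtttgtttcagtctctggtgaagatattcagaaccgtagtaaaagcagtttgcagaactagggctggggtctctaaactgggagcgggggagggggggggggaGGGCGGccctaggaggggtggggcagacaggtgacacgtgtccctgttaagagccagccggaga
Slc6a13, chr6:121300038-121300287, + strand: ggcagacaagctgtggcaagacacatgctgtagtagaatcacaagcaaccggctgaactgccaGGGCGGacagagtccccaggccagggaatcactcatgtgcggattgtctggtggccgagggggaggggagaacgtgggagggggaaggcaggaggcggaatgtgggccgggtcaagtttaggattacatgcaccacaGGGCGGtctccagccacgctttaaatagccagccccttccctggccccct

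The GC box was found in 5 of these 6 windows, 3 times each in those of Slc2a5, Slc16a9 and Slc43a2, 2 times in that of Slc6a13 and 1 time in that of Slc38a5. It is held by 32.7% of all 32851 promoter windows of the same length. The share of G and C was 55.2% to 70.4% in the 5 windows with a GC box and 48.8% in that of Slc7a7. Its median over all windows was 52.4%. The part of base composition in these matches was not tested. The Slc7a7 window held no GC box but 1 match to CTTTGA and 1 to TGATGNAA, which 13.8% and 3.45% of all windows hold. TATAAA (12.4% of all windows) and AGATAA (9.99%) were not found in the 6. Slc7a7 has 5 starts in the table, Slc6a13 has 3 and Slc43a2 has 2, and only the outermost is shown. A match is a run of letters and not evidence of binding.

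Of the heavy chain gene Slc3a2 and its measured light chain genes Slc7a5, Slc7a6, Slc7a7, Slc7a8 and Slc7a10, the knockout had the highest signal in 4 and the lowest in Slc7a8. Among all measured genes it was the highest pool in 33.4% and the lowest in 26.4%. Slc3a2, which encodes the chain 4F2hc that brings these light chains to the surface, had a signal of 1582 in the knockout, 984 in FD and 1062 in WF, 1.49-fold higher and just short of 1.5-fold. With equal medians and with quantile normalization it passed. Its design C probe set gave 139 against 199 in FD and 147 in WF, lower than both controls. Slc7a5, the light chain LAT1 that imports leucine, stood at 778 in the knockout, against 597 in FD and 577 in WF, 1.30-fold higher. Slc7a6 stood at 115 against 107 in FD and 92.4 in WF, and its second measured probe set at 65.3 against 102 in FD and 83.5 in WF. The knockout was highest on the first and lowest on the second. Slc7a8, which encodes LAT2, stood at 68.7 against 76.0 in FD and 103 in WF, the lowest of the pools. Slc7a10, which encodes the small neutral amino acid exchanger Asc-1, stood at 41.1 against 171 in FD and 77.0 in WF, with the knockout and WF values below the floor.

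The other heteromeric pair, Slc3a1 with Slc7a9, takes up cystine and cationic amino acids at the apical side of kidney and gut epithelia. Slc7a9 had a signal of 173 in the knockout, 132 in FD and 113 in WF, 1.31-fold higher. Its heavy chain gene Slc3a1 gave 7.9 in the knockout against 48.2 in FD and 159 in WF on design C, where the knockout and FD values were below the floor, and 65.5 against 26.6 in FD and 44.3 in WF on design A. On design A the knockout was thus the highest pool for both partner genes, for Slc3a1 by at least 1.14-fold with both controls below the floor. On design C it was tied with FD at the floor and below WF, so the reading for Slc3a1 depended on the probe set. Of the 10 measured Slc7 genes, 6 were higher than both controls by any amount and 1, Slc7a8, was lower. Over all measured genes these shares were 33.4% and 26.4%. The cystine carrier gene Slc7a11 and the cationic carrier gene Slc7a1 were below the floor in every pool on all of their probe sets. Slc7a4 stood at 180.1 against 113 in FD and 145 in WF, and Slc7a2 stood at 98.9 against 85.8 in FD and 11.4 in WF, both of which were under the floor.

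Among sodium-dependent exchangers of the Slc1 family, Slc1a5 (ASCT2, a glutamine and neutral amino acid exchanger) had 7367 in the knockout, 4856 in FD and 5111 in WF, 1.44-fold higher. Both design C probe sets of this gene have a shared-sequence suffix, and the second gave 480 against 314 in FD and 436 in WF. The design A probe set ran the other way, with 94.9 against 126 in FD and 174 in WF. Its direction in the knockout pool therefore depended on the probe set. Slc1a4, which encodes the related ASCT1, stood at 180 against 72.0 in FD and 144 in WF, and the FD pool was the one that lay apart. The glial glutamate transporter gene Slc1a3 stood at 127 against 91.1 in FD and 115 in WF, and Slc1a1 and Slc1a6 were below the floor in every pool.

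Sodium-coupled neutral amino acid transporters of the Slc38 family included 2 genes with the knockout highest (Slc38a3 and Slc38a6) and 2 with it lowest (Slc38a4 and Slc38a5), of 9 measured. The knockout was highest in 33.4% and lowest in 26.4% of all measured genes. Slc38a2, which encodes SNAT2, a carrier induced by amino acid shortage, had 4 measured probe sets. The chosen one gave 1121 in the knockout, 1126 in FD and 915 in WF, and the next gave 566 against 799 in FD and 691 in WF. The others gave 343 against 338 in FD and 380.2 in WF, and 156 against 119 in FD and 152 in WF. The knockout pool was above both controls on 1 of the 4 and below both on 1, by at most 1.22-fold. Slc38a4, an imprinted system A transporter gene, stood at 344 against 389 in FD and 423 in WF, 1.13-fold lower, and at 129 against 109 in FD and 113 in WF on its other probe set.

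Slc38a1 stood at 263 in the knockout, 264 in FD and 168 in WF, so that the WF pool lay apart. Slc38a6 stood at 390 against 319 in FD and 223 in WF. Slc38a10 had nearly the same signal in all pools, 326 against 331 in FD and 319 in WF. Slc38a7, which encodes a lysosomal glutamine carrier, stood at 281 against 269 in FD and 389 in WF. The knockout was the highest pool for Slc38a6 and lay between the controls for Slc38a7 and Slc38a10. Slc38a9, a lysosomal arginine sensor that acts on the growth kinase mTORC1, had 5 measured probe sets that did not agree. On the chosen one the knockout (158) lay between FD (18.4) and WF (352), and on another, with an incomplete probe choice, it was 2.0-fold higher (188 against 93.8 in FD and 35.4 in WF).

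Of 15 neurotransmitter transporter family (Slc6) genes, 9 were measured and 2 lay above the floor in all pools. These were Slc6a13 and the taurine transporter gene Slc6a6, which stood at 439 in the knockout, 383 in FD and 509 in WF. The creatine transporter gene Slc6a8 stood at 107 against 135 in FD and 83.2 in WF, between the controls, while its design A probe set gave 55.2 against 87.4 in FD and 106 in WF, at least 1.53-fold lower. The genes for the dopamine and serotonin transporters, Slc6a3 and Slc6a4, were below the floor in every pool. Slc43a1, which encodes LAT3, stood at 146 against 193 in FD and 141 in WF, and Slc43a3 was below the floor in every pool.

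None of the glucose transporter genes Slc2a1, Slc2a2 and Slc2a3 was 1.5-fold from both controls on its chosen probe set. Slc2a1, the basal glucose transporter GLUT1, had a signal of 2163 in the knockout, 1457 in FD and 2323 in WF, so the knockout lay between the controls. Slc2a3, the high-affinity glucose transporter GLUT3, had 3384 against 2483 in FD and 2801 in WF on the chosen probe set, 1.21-fold higher. Of its 3 other measured probe sets, one gave 1695 against 1638 in FD and 1865 in WF, one with a shared-sequence suffix gave 1434 against 766 in FD and 1049 in WF, and one gave 84.1 against 35.6 in FD and 47.1 in WF. The knockout exceeded both controls on 3 of the 4. On the probe set with 84.1, both control values were below the floor of 80.9 and the fold was at least 1.04. Slc2a2, the low-affinity glucose transporter GLUT2 of liver and endoderm, stood at 168 against 139 in FD and 148 in WF.

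In the other measured Slc2 genes, apart from Slc2a5 described above, the knockout lay between the controls, except in Slc2a8, where it was the lowest pool. Slc2a10 stood at 348 in the knockout, 510 in FD and 186 in WF. The proton-coupled myo-inositol transporter gene Slc2a13 stood at 198 against 238 in FD and 145 in WF. Slc2a8 stood at 84.8 against 117 in FD and 93.9 in WF, and the urate transporter gene Slc2a9 at 105 against 72.6 in FD and 135 in WF. The insulin-responsive glucose transporter gene Slc2a4 was below the floor in every pool on both probe sets, as were Slc2a6 and Slc2a12.

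The sodium-glucose transporter family (Slc5) had 10 genes, of which 6 were measured. Of these 6, 0 were at least 1.5-fold from both controls in the knockout pool. Over all measured genes, 6.51% were higher and 5.80% lower by this rule. Slc5a3, Slc5a5, Slc5a8 and Slc5a11 were below the floor in every pool. Slc5a6, the carrier of biotin and pantothenate, stood at 352 in the knockout, 366 in FD and 302 in WF, and its design A probe set gave 122 against 101 in FD and 148 in WF. Slc5a2, the kidney glucose carrier SGLT2, stood at 402 against 421 in FD and 624 in WF, and a second probe set gave 122 against 33.0 in FD and 26.5 in WF. The second probe set of Slc5a2 thus ran opposite to the first. The intestinal glucose carrier gene Slc5a1 stood at 106 against 113 in FD and 67.5 in WF. Slc5a10 stood at 165 against 232 in FD and 181 in WF. The knockout was below both controls in Slc5a2 and Slc5a10 by no more than 1.10-fold.

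Of the 6 measured genes of the Slc16 monocarboxylate carrier family, the knockout had the highest signal in 4 and the lowest in 0, beside 33.4% and 26.4% of all measured genes, and only Slc16a9 was at least 1.5-fold from both controls. Slc16a3, which encodes the lactate exporter MCT4, had 2862 in the knockout, 2114 in FD and 2183 in WF, 1.31-fold higher. Slc16a1, which encodes MCT1, stood at 154 against 72.5 in FD and 175 in WF, and Slc16a13 stood at 1255 against 723 in FD and 1098 in WF. Slc16a11 stood at 361 against 329 in FD and 442 in WF, and Slc16a4 at 118 against 47.2 in FD and 116 in WF. In Slc16a1 and Slc16a13 the FD pool was the one at least 1.5-fold from both others. The median log2 difference over the 6 genes was 0.62 from FD and 0.11 from WF. Basigin and embigin, the membrane partners that carry MCT proteins to the surface, were level across the pools, with 3490 against 3384 in FD and 3705 in WF for Bsg and 5378 against 5270.4 in FD and 5336 in WF for Emb.

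The control pools also had genes that stood apart, and they set the scale for the counts in the knockout. In the FD pool 1 gene, Slc7a10, was at least 1.5-fold higher than both other pools and 7 were lower (1.79% and 12.5%), against 7.5% and 5.61% of all measured genes. The 7 were Slc1a4, Slc6a9, Slc6a18, Slc7a15, Slc16a1, Slc16a13 and Slc38a9. In the WF pool 5 were higher and 4 lower (8.93% and 7.14%), against 6.58% and 5.63% of all genes. The higher ones were Slc1a2, Slc3a1, Slc5a9, Slc6a17 and Slc38a9, none of which was above the floor in all pools. The lower ones were Slc2a10, Slc6a2, Slc7a14 and Slc38a1. Among those on design C, Slc5a9 stood at 32.8 in the knockout, 51.1 in FD and 442 in WF, and Slc7a14 stood at 405 in the knockout, 429 in FD and 102 in WF. In all, 9 genes stood apart in the knockout, 8 in FD and 9 in WF, with Slc38a9 counted in both controls, Slc6a9 in the knockout and FD, and Slc6a17 in the knockout and WF.

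**Figure D3:**
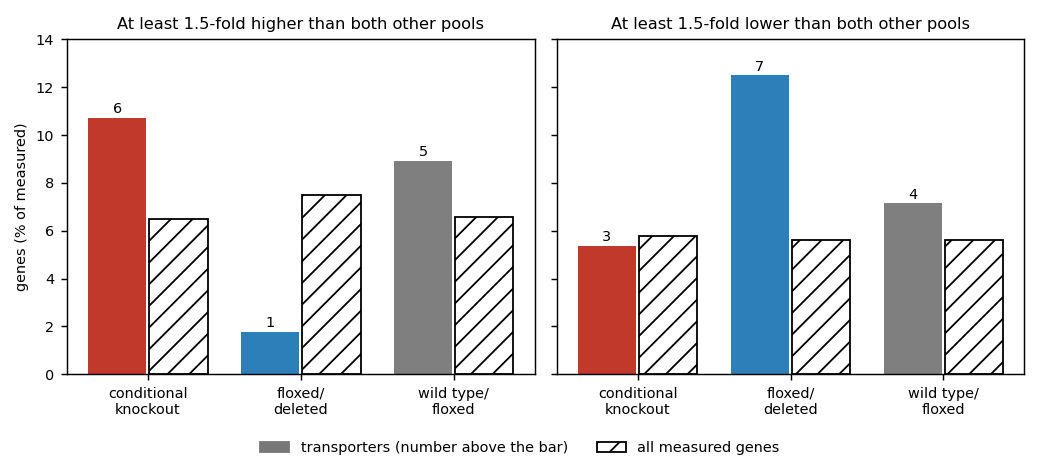
Percent of measured genes at least 1.5-fold higher (left) or lower (right) than both other pools, for each pool, in the 56 transporters (solid, with the number of genes above each bar) and in all 12388 measured genes (hatched). The highest solid bars are the 7 lower genes of the floxed/deleted pool and the 6 higher genes of the knockout pool.

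Counting every probe set in place of 1 per gene, 87 of 140 were measured, of which 8 were at least 1.5-fold higher and 4 lower in the knockout (9.20% and 4.60%), against 7.35% and 5.63% of all 24543 measured probe sets. Probe sets of a gene often disagreed. Of 21 transporters with several measured probe sets, the log2 difference between the knockout and the mean of the controls had the same sign on all of them in 6 (28.6%) and mixed signs in 15. Over the 4760 genes with several measured probe sets the share with 1 sign was 42.6%. The 6 were Slc1a2, Slc5a9, Slc6a6, Slc6a8, Slc6a18 and Slc16a9. Among the higher genes, Slc16a9 was therefore the one whose measured probe sets all pointed the same way, Slc2a5 and Slc43a2 were mixed, and Slc6a9, Slc7a7 and Slc38a3 had 1 measured probe set each.

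**Figure D4:**
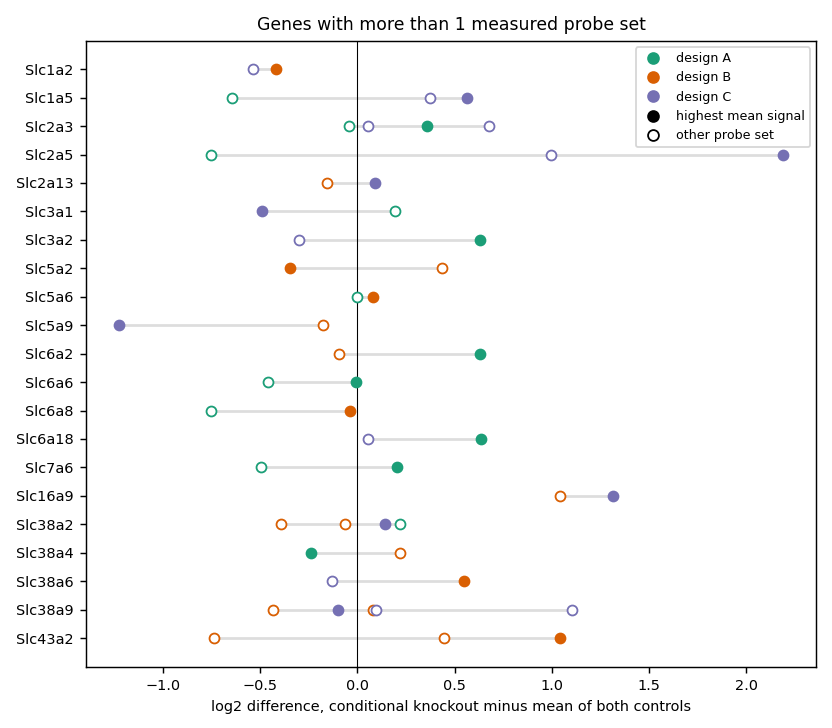
Log2 difference of the knockout from the mean of both controls for every measured probe set of the 21 transporters that have several, coloured by array design. Filled circles are the probe sets with the highest mean signal. For Slc2a5, Slc1a5, Slc3a2 and Slc43a2 the filled circle lies right of 0 and at least 1 open circle lies left of it.

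Genes that act with these transporters were read from 4 lists. By the same 1.5-fold rule, 6.51% of all measured genes were higher in the knockout and 5.80% were lower. Of 29 measured amino acid response genes, which cells switch on when amino acids are short, 1 was higher and 1 lower. Sesn2, an inhibitor of mTORC1, had 187 in the knockout, 67.0 in FD and 23.6 in WF, at least 2.32-fold higher. The Sesn2 probe set, on design C, has a suffix that marks an incomplete probe choice. Ddit4, another inhibitor of mTORC1, had 58.1 in the knockout against 217 in FD and 210 in WF, 3.61-fold lower. That knockout value lay just above the floor of 57.3. Asns, the asparagine synthetase gene that responds to this pathway, stood at 698 against 898 in FD and 1119 in WF, and Atf4, its main transcription factor, at 1232 against 1595 in FD and 1435 in WF. The median of the list was -0.07.

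Of 27 measured genes of amino acid sensing by mTORC1, 3 were higher and 2 lower, beside 6.51% and 5.80% of all measured genes, and the median was 0.22. Wdr24, a subunit of a complex that activates the pathway, stood at 1963 against 840.2 in FD and 952 in WF, 2.06-fold higher. The Wdr24 probe set is on design C and its suffix marks an incomplete probe choice. Rheb, the GTPase that switches on mTORC1, stood at 187 against 110 in FD and 59.6 in WF, 1.71-fold higher. Nprl2, a subunit of an inhibitory complex that was named after its value was seen, stood at 252 against 95.8 in FD and 161 in WF. The Nprl2 probe set has a shared-sequence suffix. The arginine sensor gene Castor1 stood at 108 against 260 in FD and 202 in WF, and Depdc5, a partner of Nprl2, at 84.2 against 187 in FD and 223 in WF.

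Of 19 measured genes of sugar and lactate metabolism, 1 was higher and 0 were lower, with a median of 0.07. The shares of all measured genes were again 6.51% and 5.80%. Txnip, an inhibitor of glucose uptake, stood at 113 in the knockout against 69.4 in FD and 72.9 in WF, 1.55-fold higher. Ldha, the lactate dehydrogenase subunit that makes lactate, stood at 14833 against 13796 in FD and 14571 in WF. Khk, the ketohexokinase that acts on fructose, stood at 123 against 309 in FD and 51.4 in WF, between the controls, whereas Slc2a5 was highest in the knockout. Of 8 measured transporter partners and regulators, 0 were at least 1.5-fold from both controls in either direction, and their median was -0.02.

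Cell type markers in the same pools were read beside these results. For scale, the 1.5-fold rule called 6.51% of all measured genes higher in the knockout and 5.80% lower. Of 24 measured visceral endoderm markers, 8 were higher and 0 lower in the knockout, and their median log2 difference was 0.58. Their summed signal was 56692 in the knockout, 32020.2 in FD and 36098 in WF. Each sum given here adds signals across designs, values below the floor among them, and is led by its brightest probe sets. Apoa1, Amn and Apoe were the brightest of these markers, and the Apoa1 probe set has a shared-sequence suffix. Of 6 measured maternal decidua and immune markers, 3 (Des, C1qb and Laptm5) were higher and 0 lower. The sums over the list were 1042 in the knockout, 632 in FD and 365 in WF. Laptm5 was the brightest, with 446 in the knockout, 271 in FD and 109 in WF. Its probe set, on design C, has a shared-sequence suffix. The 8 other markers, among them Dcn, Hoxa10, Pgr, Ptprc and Lyz2, were below the floor in every pool. Of 8 measured trophoblast markers, 1 was higher and 1 lower, with sums of 2092 in the knockout, 2499.7 in FD and 2392 in WF, and Esx1, Peg10 and Tpbpa were below the floor. Of 6 measured erythroid markers, 0 were past 1.5-fold in either direction, with sums of 499.8 in the knockout, 633 in FD and 404 in WF, and Hba-x, Hbb-y and Tal1 were below the floor. Of 8 measured epiblast, streak and mesoderm markers, 2 (Utf1 and Sox2) were higher and 1 (Fst) lower, with sums of 5404 in the knockout, 3538 in FD and 2869 in WF. Utf1 alone stood at 2735 against 1080.2 in FD and 795 in WF, and Pou5f1 stood at 1444 against 1203 in FD and 1107 in WF. The part of these cell types in the transporter differences was not tested.

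Ctnnb1 itself, the gene that was targeted, stood at 1376 in the knockout, 1509 in FD and 1773 in WF, 1.10-fold lower. The sources used here do not place its probe set inside or outside the deleted part. The ratio of the 5′ to the 3′ signal of beta-actin was 0.570 to 0.613 in the knockout over the 3 designs, 0.655 to 0.698 in FD and 0.681 to 0.730 in WF, lower in the knockout on each design. That of Gapdh lay between the controls in the knockout on each design. The part of RNA quality in these differences was not tested.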

How the data were processed

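Total RNA of the embryo pools was measured on 1-colour Affymetrix arrays. The deposited values are intensity on a linear scale, 1 per probe set, and how the authors summarised and scaled them is not stated in the labels. The trimmed means of the deposited intensity, without the lowest and highest 2% of values, were 150.0 or 150.1 on each array, so the arrays had been brought to a common level before deposit. Here the arrays of each design were set to equal trimmed means, values below the design's median were set to it, and log2 was taken (Python 3.11.15, numpy 2.4.6, pandas 2.3.3). Names came from the platform annotation, in which 29197 probe sets had 1 symbol, 724 several and 6978 none. All 140 transporter probe sets matched a gene of the GRCm38.p6 table and 0 symbols changed. Promoter sequences are from RefSeq, and 58 of the 79 genes had an entry there. The number of arrays limits the precision.

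Genes named with values are those with a measured probe set at least 1.5-fold from both controls, those with the 20 highest mean signals and the brightest gene of each family, and up to 4 genes per pathway list. Others, Asns, Atf4, Bsg, Emb, Khk and Ldha among them, were added to complete a family or pathway. The members, lists and thresholds were chosen with earlier results of these data known. Alternatives were equal medians, quantile normalization, floors at the 30th and 70th percentile or none, means over probe sets, leaving out shared-suffix probe sets, each control alone, design A alone, A with B, and a 2-fold threshold. A filter on genes above the floor in all pools was added after seeing the data.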

Additional observations from a re-analysis of the deposited data

How the results depend on the processing

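The count of 6 higher transporters was 15 with the floxed/deleted pool as the only control, 12 with the wild-type/floxed pool as the only control and 2 of 27 on design A alone, where 14.2%, 13.9% and 3.51% of all genes were higher. Under the other alternatives it was between 4 and 8. For the 3 lower transporters the count became 7 when the floor was put at the 30th percentile, 15 when there was none, 8 when wild type/floxed was the only control, and 0 under a 70th percentile floor as well as under a 2-fold threshold. The shares of all genes lower under these settings were 9.52%, 14.5%, 13.9%, 3.30% and 1.98%. Fewer genes are measured under a higher floor (39 in place of 56) and more under a lower one (75, or 79 with none). With 1 control a gene has only 1 comparison to pass, so the counts could not fall there. A 2-fold threshold could not raise them. The cause of any other change was not tested. The median of 0.16 ran from 0.08 on designs A and B to 0.24 with equal medians. Equal medians moved the median of all genes to 0.06, from -0.02. Under alternatives, 250 values of named genes were read. Of these, 234 moved by less than the standard deviation between the controls on their design and 16 moved by more. Many of the 234 could not move, since floors and probe set choices do not touch bright genes with 1 probe set. Signs were checked only in genes at least 1.5-fold from both controls, and 0 of these changed sign. Slc1a5, which was not among them, went from 0.53 to -0.41 without shared-suffix probe sets. With genes above the floor in all pools only, a filter chosen after seeing the data, 4 of 37 were higher and 2 lower, against 4.31% and 5.32% of all such genes. No replicate could be left out, because each genotype had 1 pool per design. No paired analysis was possible because no test could be run. Signals near the floor limit 19 of the 56 measured genes, which were at it in 1 or 2 pools.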
